A study of Mus musculus with 6 samples.

Results

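The genes described here are the enzymes that interconvert one-carbon units carried by folate, with Mthfd1 at their centre. The set held 9 genes, chosen by their place in the pathway: Mthfd1, Shmt1, Shmt2, Mthfd2, Aldh1l1, Mtfmt, Gcsh, Gldc and Amt. Every probe set whose annotated symbol was 1 of the 9 was taken, which gave 18 probe sets of 8 genes, out of 22626 probe sets and 12393 genes on the array. Each probe set is a group of short probes read as 1 signal. Amt, the third enzyme of glycine cleavage named in the set, had no probe set under its symbol and was not analysed here.

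RNA came from the proximal colon of 3 heterozygous mice, which carry a gene trap in 1 copy of Mthfd1 (Mthfd1/+), and of 3 wild-type mice, with 1 array per animal. All 6 animals were 8 weeks old, had been weaned at 3 weeks and had then eaten the AIN-93G control diet for 5 weeks. The sources used here do not state the position of the trap within the gene, the strain or the sex. The wall of the proximal colon was taken whole, so fewer cells of a type and less RNA per cell cannot be told apart.

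Folate carries one-carbon units at several oxidation levels, in the cytosol and in mitochondria. Serine gives up a unit to folate through the serine hydroxymethyltransferases, glycine gives up another through the mitochondrial glycine cleavage system, and the mitochondrial units leave as formate. Mthfd1 is the cytosolic enzyme with 3 activities that takes up formate and moves the unit between the formyl, methenyl and methylene forms, which feed purine and thymidylate synthesis and the remethylation of homocysteine. The question is whether the neighbouring enzymes differ in message in a colon with less Mthfd1 message.

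Mthfd1 signal was lower in every heterozygous colon than in every wild-type colon, at 56.6% and 49.0% of the wild-type mean by its brighter 2 probe sets. Neither passed after adjustment over the array, where 0 of 13576 tested probe sets did, so the lack of a call does not set the other enzymes apart from Mthfd1. Of the 12 probe sets of the other enzymes bright enough to test, 6 had a positive and 6 a negative log2 fold change, 0 passed, and 11 overlapped between the genotypes (10.4% of all tested probe sets did not overlap). The exception was 1 of 4 probe sets of Shmt1, the cytosolic serine hydroxymethyltransferase, which was higher in all 3 heterozygous colons at 128% of the wild-type mean. It did not pass either.

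The arrays had been scaled to a common level before deposit, with a trimmed mean of 500 on each and medians between 156.8 and 168.2. Of 9 listed colonocyte markers 8 had a probe set, all above the filter, and their summed signal ran from 51697 to 61287 in heterozygous and from 52970 to 58693 in wild-type colons. Car1, the carbonic anhydrase of colonocytes, averaged 16722 in heterozygous and 16563 in wild-type colon. Others varied more: Aqp8, a water channel, averaged 2490 in heterozygous and 1525 in wild-type colon with a 5.17-fold range over the 6 mice, and Slc26a3, the chloride-bicarbonate exchanger, averaged 3858 and 4545. Ileal enterocyte genes differed widely between animals of both genotypes. Fabp6, the ileal bile acid binding protein, had 382.3, 5621.6 and 727.8 in heterozygous colons, against 1316.8, 5661.9 and 93.5 in wild-type colons. Apoa1, an apolipoprotein of absorptive cells, had a 261-fold range, and Fabp2, the brightest of the 6 ileal markers, a 1.75-fold range. The summed signal of the 6 was 10084, 23753 and 12262 in heterozygous colons and 16653, 27675 and 8184 in wild-type colons. As a measure of RNA integrity, the Gapdh control signal at the 3' end over that at the 5' end lay between 0.655 and 0.727 in heterozygous and between 0.700 and 0.717 in wild-type arrays. For the Actb control the same ratio was higher, between 1.45 and 1.54 in heterozygous and between 1.44 and 1.61 in wild-type arrays.

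Mthfd1 (gene number 108156, chromosome 12, 76254406 to 76319820 in GRCm38.p6) was read by 3 probe sets. The brightest, 1415916_a_at, had signals of 453.1, 509.6 and 549.4 in heterozygous colons, against 949.9, 838.6 and 881.4 in wild-type colons. The next, 1415917_at, had 209.0, 239.5 and 170.6 in heterozygous colons, against 406.2, 413.4 and 443.4 in wild-type colons. Within each genotype the values lay close together, and the lowest wild-type value of each probe set stood above the highest heterozygous value. The dimmest, 1436704_x_at, had 37.5, 31.8 and 34.5 in heterozygous colons, against 43.9, 59.5 and 59.7 in wild-type colons. It lay below the filter, a mean signal at the 40th percentile of all probe sets, and so was not part of the test across probe sets.

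In means, 1415916_a_at read 504 ± 48.4 in heterozygous and 890 ± 56.1 in wild-type colon (SD, n = 3 each), a log2 fold change of -0.80 (SE 0.12, 95% interval -1.08 to -0.52) on the scale of log2(signal + 16). For 1415917_at the means were 206 ± 34.5 in heterozygous and 421 ± 19.7 in wild-type colon (SD, n = 3 each), a log2 fold change of -0.99 (SE 0.15, 95% interval -1.32 to -0.65). Both intervals hold -1, the value of a halving, and both exclude 0. With adjustment over the whole array, p was 0.125 and 0.116 (limma), so Mthfd1 did not pass the threshold of 0.05, like all others tested (0%, smallest adjusted p 0.0583; 771 had an unadjusted p under 0.05). By unadjusted p the 2 probe sets ranked 11 and 10 among all those tested. The exact permutation p was 0.1 for each of the 3 probe sets, two-sided, the smallest that 3 against 3 arrays can give. Across the array, the genotypes did not overlap with heterozygous lower for 5.10% of tested probe sets. Which probe sets read the message downstream of the trap is unknown here.

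**Figure D1:**
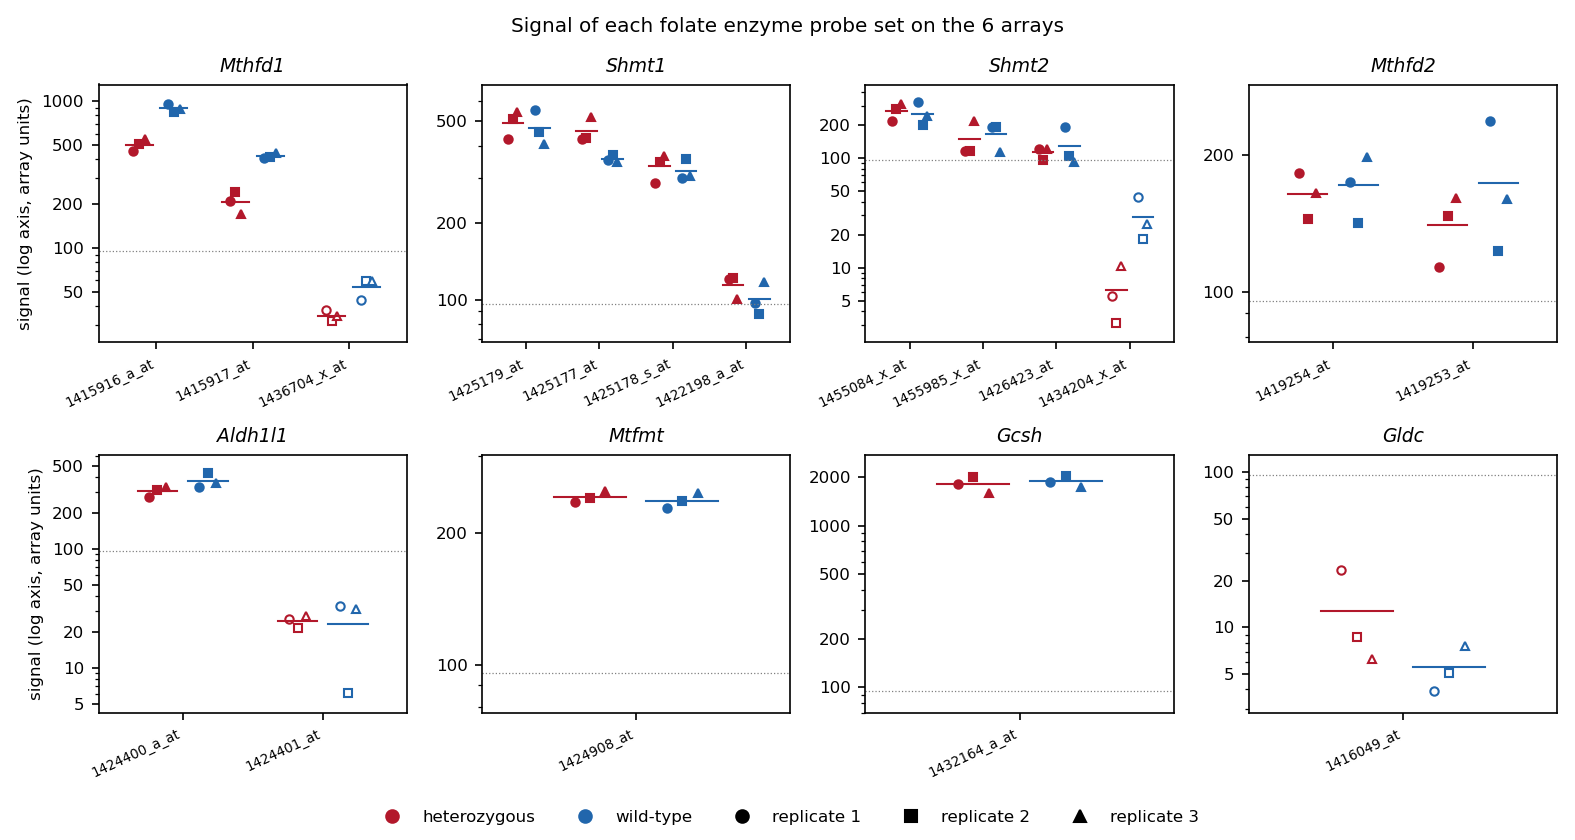
Signal in array units on a log axis, with a panel and a scale of its own for each enzyme gene and heterozygous (red) left of wild-type (blue) for each probe set; points are single mice, bars are means, open points are probe sets below the filter and the dotted line is the filter level of 95.8. The Mthfd1 groups stand apart at all 3 probe sets, whereas Shmt1 1425177_at and the dim Shmt2 1434204_x_at are the only ones of the other 15 whose groups do not overlap.

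Shmt1 and Shmt2 encode the cytosolic and the mitochondrial serine hydroxymethyltransferase, which transfer a carbon of serine to tetrahydrofolate and release glycine. Shmt1 (chromosome 11, 60788897 to 60811265 in GRCm38.p6) was read by 4 probe sets, all above the filter and all with a positive log2 fold change. Only 1425177_at had groups that did not overlap: 425.5, 428.7 and 519.7 in heterozygous colons, against 354.2, 370.6 and 346.4 in wild-type colons. Heterozygous replicate 3 was the highest of the 6. The gap between the lowest heterozygous and the highest wild-type value was wider than the range of the wild-type values. It was narrower than the range of the heterozygous values.

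The mean of 1425177_at was 458 ± 53.5 in heterozygous and 357 ± 12.4 in wild-type colon (SD, n = 3 each; log2 fold change 0.34, SE 0.13, 95% interval 0.05 to 0.63). Its unadjusted p was 0.026 and its adjusted p 0.805 (limma), and its exact permutation p was 0.1. For comparison, 5.27% of all tested probe sets had non-overlapping groups with heterozygous higher, and 5.68% had an unadjusted p under 0.05 in either direction, so 1 of 12 is near what the array as a whole gave.

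The remaining 3 Shmt1 probe sets overlapped. The brightest, 1425179_at, had 428.5, 510.4 and 544.6 in heterozygous colons, against 553.5, 453.5 and 408.5 in wild-type colons, with the highest value of all in wild-type replicate 1 (log2 fold change 0.07, 95% interval -0.27 to 0.41). For 1425178_s_at the signals were 287.2, 346.3 and 365.2 in heterozygous colons, against 300.2, 356.4 and 305.7 in wild-type colons (log2 fold change 0.05, 95% interval -0.27 to 0.37). For 1422198_a_at they were 120.1, 121.4 and 100.7 in heterozygous colons, against 97.4, 87.8 and 117.1 in wild-type colons (log2 fold change 0.16, 95% interval -0.26 to 0.58). The 4 intervals overlap one another, and whether the probe sets of Shmt1 differ in their fold change was not tested. A higher Shmt1 signal therefore rests on 1 probe set.

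Shmt2 (chromosome 10, 127517123 to 127522444) was also read by 4 probe sets, and these did not move together. The brightest, 1455084_x_at, had 218.5, 280.1 and 313.0 in heterozygous colons, against 322.1, 198.7 and 239.9 in wild-type colons (log2 fold change 0.10, 95% interval -0.35 to 0.55, adjusted p 0.972, limma). At 1455985_x_at the signals were 115.9, 114.8 and 219.4 in heterozygous colons, against 191.1, 190.4 and 113.0 in wild-type colons (log2 fold change -0.15, 95% interval -0.77 to 0.48; between -0.43 and -0.0038 without 1 array). At 1426423_at they were 119.8, 96.0 and 121.5 in heterozygous colons, against 189.9, 104.8 and 91.8 in wild-type colons (log2 fold change -0.12, 95% interval -0.70 to 0.46). Wild-type replicate 1 was the highest array at the first and the last of these, and heterozygous replicate 3 at the other.

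The fourth Shmt2 probe set, 1434204_x_at, was dim and below the filter. Its signals were 5.5, 3.1 and 10.3 in heterozygous colons, against 43.8, 18.4 and 25.2 in wild-type colons, so that every heterozygous value was lower (exact permutation p = 0.1). No detection calls came with the values, and whether such signals stand above background is unknown. Below the filter, 8.76% of 9050 probe sets had non-overlapping groups with heterozygous lower. The suffix x of 3 of the 4 Shmt2 probe sets is the array maker's mark for probes that can match other transcripts as well.

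Mthfd2, the mitochondrial methylenetetrahydrofolate dehydrogenase and cyclohydrolase, catalyses in mitochondria the same 2 steps as part of Mthfd1 in the cytosol, and is known as a target of the stress transcription factor Atf4. Its gene lies on chromosome 6 (83305704 to 83326011). The brighter probe set, 1419254_at, had 182.1, 144.8 and 164.9 in heterozygous colons, against 173.8, 142.1 and 197.7 in wild-type colons. The mean was 164 ± 18.7 in heterozygous and 171 ± 27.9 in wild-type colon (SD, n = 3 each; log2 fold change -0.05, SE 0.17, 95% interval -0.44 to 0.33, limma adjusted p 0.985). The other, 1419253_at, had 113.4, 147.2 and 161.0 in heterozygous colons, against 236.5, 123.2 and 159.8 in wild-type colons, with wild-type replicate 1 well above the other 5 arrays (log2 fold change -0.24, 95% interval -0.77 to 0.29). Without that array the value was -0.011. Neither probe set was higher in heterozygous colon, and the upper ends of their intervals correspond to 1.26-fold and 1.22-fold.

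Aldh1l1 and Mtfmt both use the formyl form of folate. Aldh1l1, the cytosolic 10-formyltetrahydrofolate dehydrogenase, oxidises the formyl group to carbon dioxide, and its gene lies on chromosome 6 (90550768 to 90599171). Its probe set 1424400_a_at had 274.2, 313.2 and 330.9 in heterozygous colons, against 327.9, 431.6 and 358.9 in wild-type colons. The groups overlapped by 1 pair of values, heterozygous replicate 3 standing just above wild-type replicate 1. The mean was 306 ± 29.0 in heterozygous and 373 ± 53.2 in wild-type colon (SD, n = 3 each; log2 fold change -0.27, SE 0.14, 95% interval -0.59 to 0.06). The adjusted p was 0.912 (limma) and the exact permutation p 0.2. This was the most negative value among the 12, and it was -0.16 without wild-type replicate 2. The other Aldh1l1 probe set, 1424401_at, lay below the filter with signals of 25.7, 21.7 and 27.0 in heterozygous and 32.8, 6.1 and 31.0 in wild-type colons.

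Mtfmt, which formylates the initiator methionyl-tRNA of mitochondria (chromosome 9, 65435782 to 65453054), was the steadiest of the enzymes. Its signals were 235.3, 241.1 and 250.3 in heterozygous colons, against 228.0, 236.6 and 246.6 in wild-type colons, a 1.10-fold range over all 6 mice. The log2 fold change was 0.03 (SE 0.12, 95% interval -0.25 to 0.31, limma adjusted p 0.988).

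The glycine cleavage system releases a one-carbon unit from glycine in mitochondria. Gcsh encodes its lipoyl-carrying H protein (chromosome 8, 116981967 to 116993498), and its signals were 1808.2, 2014.6 and 1590.4 in heterozygous colons, against 1867.4, 2042.6 and 1741.8 in wild-type colons. The mean was 1804 ± 212 in heterozygous and 1884 ± 151 in wild-type colon (SD, n = 3 each; log2 fold change -0.07, SE 0.12, 95% interval -0.34 to 0.21). Gldc encodes the decarboxylase of the same complex (chromosome 19, 30098441 to 30175441) and read 23.3, 8.7 and 6.3 in heterozygous colons, against 3.9, 5.1 and 7.6 in wild-type colons. These values lay far below the filter, with 6.92% of probe sets dimmer on average, and overlapped (exact permutation p = 0.2). Heterozygous replicate 1 was the highest of the 6. A working glycine cleavage complex needs all its subunits. Of its genes in the set, Gcsh was read above the filter, Gldc below it by 1 probe set, and Amt was not measured. These values do not tell whether the complex is present.

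Over the 12 tested probe sets of Shmt1, Shmt2, Mthfd2, Aldh1l1, Mtfmt and Gcsh, the median log2 fold change was -0.01, beside 0.00 for all tested probe sets. The values ran from -0.27 at Aldh1l1 to 0.34 at Shmt1 1425177_at, all inside the range of -0.44 to 0.44 that held the middle 95% of the array. Both Mthfd1 probe sets lay outside it. In 11 of the 12 the upper end of the 95% interval stayed below 1.5-fold, and at Shmt1 1425177_at it reached 1.55-fold, on the scale of signal + 16, which understates the change of dim probe sets. The half-widths of the intervals ran from 0.27 at Gcsh to 0.63 at Shmt2 1455985_x_at. Rises within the intervals cannot be told from no difference in these data, and the adjusted threshold was not passed by Mthfd1 itself at -0.80 and -0.99.

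**Figure D2:**
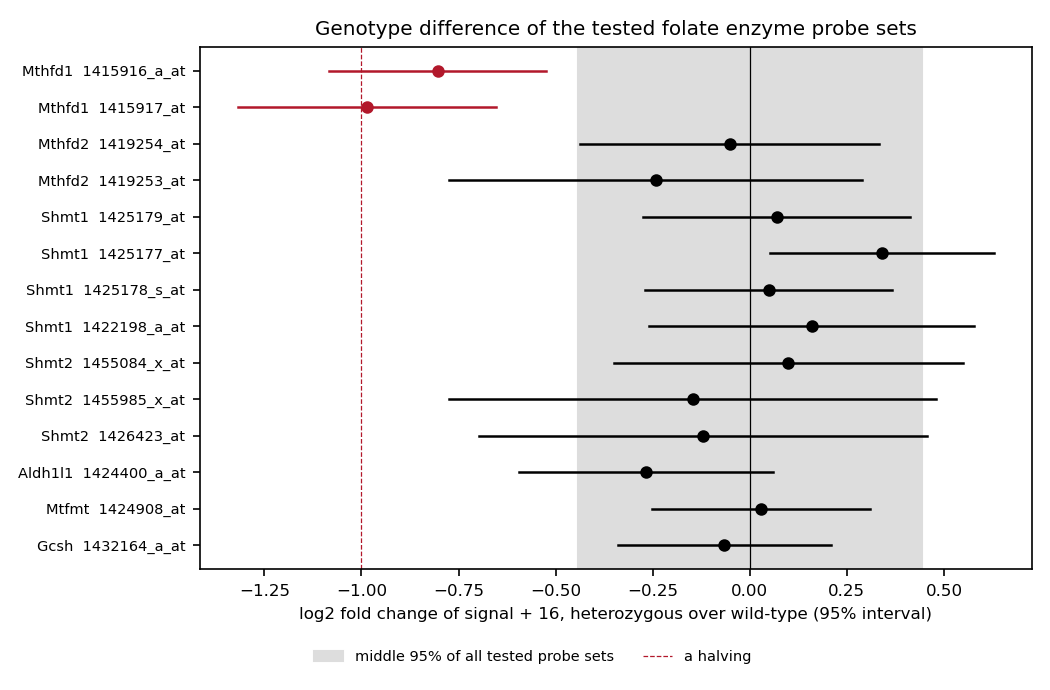
Log2 fold change of signal + 16, heterozygous over wild-type, with its 95% interval, for the 14 tested probe sets; the grey band is the middle 95% of all tested probe sets and the dashed line a halving. The Mthfd1 intervals (red) hold the dashed line and lie left of the band's edge at -0.44, and of the others only that of Shmt1 1425177_at leaves out 0.

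The enzymes differed in how far mice of one genotype varied. The pooled SD within genotypes, on the log2 scale, had a median of 0.18 over all tested probe sets, with a middle 50% of 0.13 to 0.26. Mtfmt had 0.05, and Mthfd1 1415916_a_at and Shmt1 1425177_at had 0.11 and 0.12, all below that range. Mthfd2 1419253_at had 0.35 and the 3 tested Shmt2 probe sets had 0.29, 0.44 and 0.37, all above it. The probe sets with the widest spread read Shmt2 and Mthfd2 only, and the other Mthfd2 probe set, at 0.19, did not share it. Mthfd2 1419253_at, Shmt2 1455985_x_at and Shmt2 1426423_at were dim for tested probe sets. Of all probe sets, 49.2%, 49.3% and 44.2% were dimmer on average, with the filter at 40%. Spread was not compared among probe sets of like signal.

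**Figure D3:**
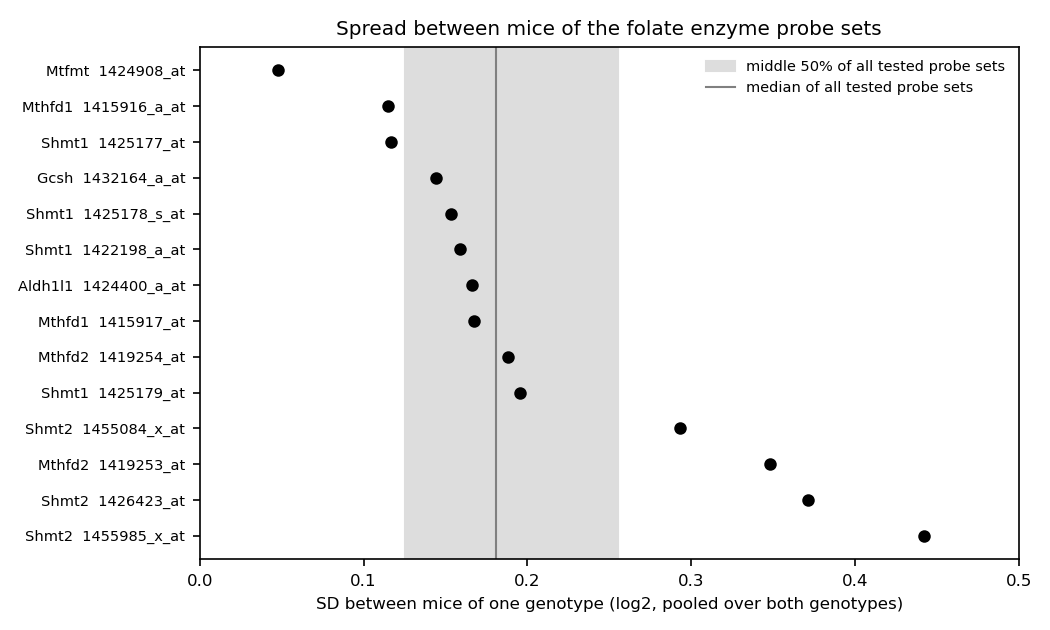
SD between mice of one genotype, pooled over both genotypes, on the log2 scale for each tested probe set, in order; the band and line show the middle 50% and the median of all tested probe sets. Mtfmt, at 0.05, is the steadiest, and Mthfd2 1419253_at and the 3 Shmt2 probe sets lie beyond the band.

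The arrays were also compared within each genotype. Among heterozygous colons, replicate 3 had the highest value at 10 of the 14 tested probe sets and replicate 1 the lowest at 8. Among wild-type colons, replicate 1 was the lowest at 4 and the highest at 6. The latter included Mthfd1 1415916_a_at, Mthfd2 1419253_at, Shmt1 1425179_at and Shmt2 1455084_x_at and 1426423_at. Several of the 14 read the same gene, and the shares over all tested probe sets were not counted, so an effect of single arrays was not tested. Among wild-type colons, proliferating-cell markers were also highest in replicate 1. Their summed signal over the 9 of 10 listed genes with a probe set was 11078, 11632 and 12547 in heterozygous colons, against 12346, 8216 and 9118 in wild-type colons. All 9 had a positive log2 fold change with a median of 0.32, 3 had an unadjusted p under 0.05 and 0 passed, whereas 4248 of all 8243 tested genes were positive, with a median of 0.01, and 5.34% had an unadjusted p under 0.05. Mki67 averaged 1395 ± 123 in heterozygous and 1039 ± 234 in wild-type colon (SD, n = 3 each, limma adjusted p 0.805). Among the 9, only Mki67 had groups that did not overlap, beside 5.27% of all tested probe sets with heterozygous higher. The 5 of 6 listed T-cell markers with a probe set summed to 378.2, 679.5 and 936.7 in heterozygous colons, against 378.0, 424.3 and 391.2 in wild-type colons. Only 2 of these T-cell markers lay above the filter. Of the 2, each had a positive log2 fold change, 1 had an unadjusted p under 0.05 (limma) and 0 passed. No gene of these lists was at 0 on any array. The part of proliferating cells, T cells or the ileal genes in the Shmt1, Shmt2, Mthfd2 and Aldh1l1 values was not tested.

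Genes around the set gave no call in either direction. The 4 neighbouring lists named 42 genes, of which 32 had a probe set and 22 were tested, each by its brightest probe set. None passed, as was true of all 8243 genes (0%), and 1 had an unadjusted p under 0.05, against 5.34% of all genes. That gene was Gart, which encodes the trifunctional enzyme of purine synthesis that spends the formyl group made by Mthfd1. Its brightest probe set had 393.9, 431.5 and 553.5 in heterozygous colons, against 393.1, 306.9 and 349.0 in wild-type colons, so the groups touched without overlapping (log2 fold change 0.37, 95% interval 0.01 to 0.73, limma adjusted p 0.866). At the dimmer Gart probe set 1424435_a_at the groups did not overlap either, with means of 154 in heterozygous and 81.7 in wild-type colon. Its wild-type values, 89.4, 89.3 and 66.5, lay below the filter level of 95.8. This probe set passed the filter only through its heterozygous values, so it is given as a description and not as separate support. Its log2 fold change was 0.76 (95% interval 0.21 to 1.32, limma adjusted p 0.718). At 1424436_at the groups overlapped and the value was 0.02. Of all tested probe sets, 5.27% had non-overlapping groups with heterozygous higher. Among the 4 tested other folate enzymes, 3 values were positive, with a median of 0.15: Mtrr, which reactivates methionine synthase, had 0.16 and Pdf, which removes the formyl group from mitochondrial proteins, had 0.13.

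Of the 4 tested genes of folate transport and retention, 1 was positive and 3 were negative (median -0.03). Ggh, the hydrolase that shortens folate polyglutamates, averaged 976 ± 129 in heterozygous and 1251 ± 320 in wild-type colon (SD, n = 3 each; log2 fold change -0.33, 95% interval -0.76 to 0.10). Fpgs, which adds the glutamates, had a log2 fold change of 0.06, and Slc19a1, the reduced folate carrier, of -0.05, with 0.06 at its other tested probe set.

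Genes of serine and glycine supply leaned lower, with 7 of 8 negative and a median log2 fold change of -0.20, beside 0.01 for all tested genes, and 0 passed. Much of this lay in replicate 1 of each genotype. On the log2 scale the 8 genes deviated from their own means by an average of -0.24, -0.04 and 0.03 in heterozygous colons. In wild-type colons the averages were 0.16, 0.06 and 0.04. Psat1, the aminotransferase of serine synthesis, had 209.7, 280.9 and 307.1 in heterozygous colons, against 405.0, 308.3 and 282.9 in wild-type colons (log2 fold change -0.30, 95% interval -0.72 to 0.11). At its other probe set Psat1 had -0.19. The neutral amino acid carriers Slc1a5 and Slc1a4 had log2 fold changes of -0.23 and -0.28. Slc1a4 had -0.16 and -0.01 at its other tested probe sets, 1423550_at and 1423549_at. Phgdh, which opens serine synthesis, was the positive one at 0.10.

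The 6 tested genes of the Atf4 response, which drives Mthfd2, Shmt2 and the serine enzymes under amino acid stress, split into 3 positive and 3 negative (median -0.04). Of the positive ones, Ddit3 and Cebpb had only 0.03 and 0.02. Trib3, Chac1 and Slc7a11, dim and below the filter, had -0.35, -0.48 and -0.56, each with overlapping groups. Asns, asparagine synthetase, was lower in all 3 heterozygous colons, at 846.7, 726.2 and 794.8, against 891.9, 882.5 and 962.3 in wild-type colons (log2 fold change -0.21, 95% interval -0.47 to 0.05, limma adjusted p 0.912). Its other probe set had -0.37, also without overlap. Of all tested probe sets, 5.10% had non-overlapping groups with heterozygous lower. Atf4 itself had log2 fold changes of -0.15, with overlap, and -0.47, without, at its 2 tested probe sets. Sesn2, a stress-induced sestrin, had 0.19 with overlap, and 0.46 without overlap at a probe set below the filter (exact permutation p = 0.1). The share of probe sets below the filter with heterozygous higher and no overlap was not counted.

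**Figure D4:**
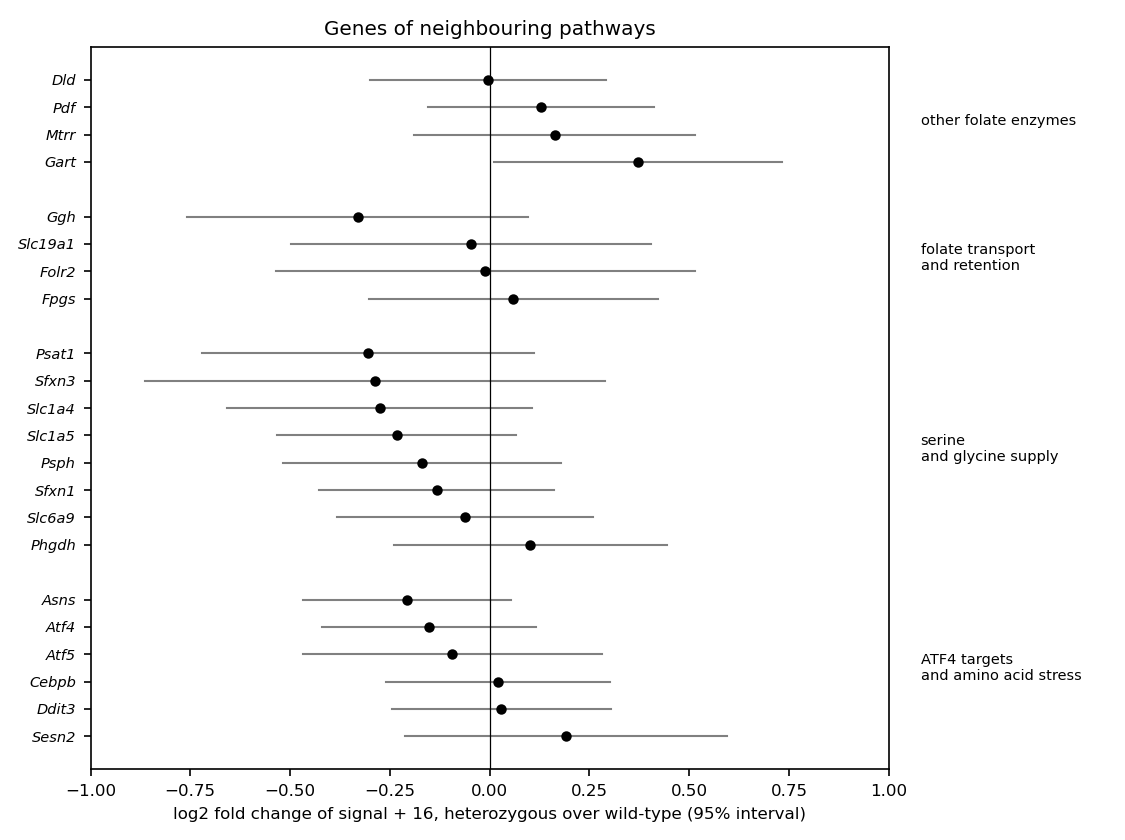
Log2 fold change of signal + 16, heterozygous over wild-type, with its 95% interval, for the 22 tested genes of 4 neighbouring pathways, each by its brightest probe set. Of these intervals, only that of Gart, at 0.01 to 0.73, leaves out 0, and 7 of the 8 serine and glycine genes lie left of 0.

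The genes whose pattern over the 6 arrays was most like that of Mthfd1 1415916_a_at were sought among the brightest probe sets of 8236 other genes. They were Tspan4, a tetraspanin (Pearson r 0.978, Spearman rho 0.886), Hrc, a calcium-binding protein of the sarcoplasmic reticulum in muscle (0.975 and 1), and Eps8l2, an actin regulator (0.974 and 0.886), and 50 genes reached r of 0.9. Because Mthfd1 forms a high and a low group by genotype, an r near 1 asks for a genotype difference in the same direction, and it is given as a description of these 6 arrays. Tspan4 had 136.7, 125.1 and 159.6 in heterozygous colons, against 316.2, 299.2 and 331.2 in wild-type colons. Hrc lay between 105.5 and 111.1 in heterozygous and between 123.0 and 136.6 in wild-type colons. No enzyme of the set was among these, since they were left out of the search.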

How the data were processed

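The authors deposited 1 table of linear intensities, 1 value per probe set and array, for 6 single-colour arrays hybridised with biotin-labelled amplified RNA. Per the submitters' processing notes GCOS was used, and the sources used here state neither version nor settings. The deposited intensities had the same mean on every array after trimming 2% at each end, so the arrays were scaled, and a change in total RNA is not measurable. The number of arrays limits precision.

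Of 22690 probe sets, 64 controls were left out. Names came from the platform annotation, checked against the GRCm38.p6 gene table (0 altered): 20380 probe sets had 1 symbol, 691 several and 1555 none, and genes were named from the first kind only. Values entered as log2(signal + 16). A filter removed probe sets whose mean signal lay under the 40th percentile, and 13576 remained. The test between genotypes used limma 3.58.1 under R 4.3.3 (variance trend, two-sided, Benjamini-Hochberg over all tested probe sets, threshold 0.05), and single probe sets by an exact permutation test. The code was tested on simulated data. The alternatives covered normalization, pseudocount, filter, variance model, weights, block, single arrays left out, gene summary and threshold.

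The members and lists were chosen with earlier results of these data known. Named genes are all members, up to 3 genes of each neighbouring list by smallest p, and the 3 most like Mthfd1. Phgdh, Ddit3, Cebpb, Trib3, Chac1, Slc7a11, Mki67, Car1, Aqp8, Slc26a3, Fabp6, Apoa1 and Fabp2 were named outside that rule, after their values were seen. Replicates are called biological in the labels, and nothing there pairs them across genotypes.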

Additional observations from a re-analysis of the deposited data

How the results depend on the processing

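Mthfd1 at its brightest probe set kept a negative log2 fold change in all 19 alternative settings, between -0.87 and -0.73 without 1 array, and passed in none of them (limma adjusted p from 0.0702 with robust variance to 0.542 without wild-type replicate 1). The count of probe sets that passed across the array was 8 with robust variance, 4 with array weights, 2 with 1 brightest probe set per gene, 8 at a threshold of 0.10, and between 0 and 39 without 1 array, namely 39 without heterozygous replicate 1 and 2 when wild-type replicate 3 was left out. None of these alternatives brought a probe set of the other enzymes, or a gene of the neighbouring or marker lists, past the threshold. Shmt1 1425177_at stayed positive without each array in turn, between 0.25 and 0.39. The sign of small values depended on single arrays: the range without 1 array was -0.17 to 0.050 for Mthfd2 1419254_at, -0.025 to 0.19 for Shmt1 1425179_at, -0.019 to 0.15 for Shmt1 1425178_s_at, -0.052 to 0.28 for Shmt2 1455084_x_at, -0.30 to 0.16 for Shmt2 1426423_at, -0.15 to 0.022 for Gcsh, -0.051 to 0.12 for Fpgs and -0.25 to 0.15 for Slc19a1. Single arrays also moved values that kept their sign: Mthfd2 1419253_at ran from -0.44 to -0.011, Shmt2 1455985_x_at from -0.43 to -0.0038, Shmt1 1422198_a_at from 0.078 to 0.26 and Mtfmt from 0.0034 to 0.056, while Aldh1l1 was -0.16 and Mtrr 0.077 without wild-type replicate 2, Gart 0.23 without heterozygous replicate 3, Ggh -0.15 without wild-type replicate 3, Psat1 -0.15 without heterozygous replicate 1, Slc1a4 -0.18 without wild-type replicate 3, and Sesn2 0.045 without wild-type replicate 1. With the mean of all probe sets per gene, Shmt2 was -0.29 in place of 0.10, to which the dim probe set 1434204_x_at contributes, and Slc19a1 was 0.088 in place of -0.05; the cause was not tested further. The pseudocount moved the dim probe sets: Shmt2 1434204_x_at was -2.08 with a pseudocount of 1 and -0.40 with 64.

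With the replicate number as a block, Mthfd1 had an adjusted p of 0.258 (limma) and 0 probe sets passed. Same-numbered arrays of the genotypes deviated together at r = -0.12, 0.50 and 0.05 across probe sets, and heterozygous replicate 1 correlated best with wild-type replicate 3, so the numbers were not taken as pairs. Values near 5 to 40, as for Gldc, have no measure of background beside them.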
